A study of Mus musculus with 69 samples.

Results

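The 9 genes Irf4, Hivep1, Zfpm1, Klhl14, Ankrd50, Rassf4, Tbc1d1, Whrn and Akr1c18 were taken from 17634 genes in a table of ribosome-bound mRNA of mouse cortex. They had been picked for lower values in parvalbumin (PV) interneurons of Fmr1 knockout (KO) mice than in those of wild-type (WT) mice. The KO and WT values of PV neurons that follow are therefore a description, with no test, and the rule had no numerical threshold. All 9 were found in the table by their Ensembl gene identifiers. The choice did not use their levels in the Camk2a neurons of other animals, or the contrasts between cortical areas and between sexes. Contrasts between cell classes set those Camk2a libraries against the PV libraries on which the genes were picked, and are only partly independent of the choice.

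The mice were 70 to 100 days old and all carried the RiboTag allele Rpl22HA/HA, which yields an HA-tagged form of ribosomal protein RPL22 in cells that express Cre. PV-Cre or Camk2a-Cre therefore placed the tag in PV interneurons or to Camk2a-expressing neurons, which in cortex are mainly pyramidal cells. The tag was immunoprecipitated from dissected visual cortex (V1) and somatosensory cortex (S1), with some RNA of other cells. PV libraries numbered 10 for KO V1, 10 for WT V1, 10 for KO S1 and 10 for WT S1. Camk2a libraries numbered 6 for KO V1, 8 for WT V1, 7 for KO S1 and 8 for WT S1. Most animals gave a library of each area, and for the tests of genotype, class and sex these were summed, which left 9 KO and 10 WT animals in PV, and 6 KO and 7 WT animals in Camk2a. In such pooled material, fewer cells of a type and less RNA per cell cannot be told apart.

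Fragile X syndrome follows loss of the human gene FMR1, whose product FMRP is an RNA-binding protein that attaches to translating ribosomes in neurons. PV interneurons are fast-spiking inhibitory cells that set the timing of cortical output. The 9 genes belong to no single pathway. Irf4, Hivep1 and Zfpm1 encode nuclear regulators of transcription. Klhl14, Ankrd50, Rassf4, Tbc1d1 and Whrn encode adaptors, trafficking regulators and scaffolds. Akr1c18 encodes a steroid-metabolising enzyme.

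Fmr1 itself averaged 10.2 ± 1.33 CPM (counts scaled to library size) in KO PV animals and 43.6 ± 3.38 CPM in WT PV animals, and 8.70 ± 1.14 CPM in KO Camk2a animals against 82.9 ± 5.57 CPM in WT Camk2a animals (SD). Library totals ran from 27.64 to 49.11 M estimated counts. Summed CPM of 10 PV markers ran from 8957 to 12180 in PV libraries, and the excitatory markers were high in Camk2a libraries as labelled, at 8953 to 12680 CPM against 1026 to 1884 CPM in PV libraries. Among Camk2a animals, C3 (KO), C18 (WT) and C19 (WT) stood apart with PV marker sums of 724 to 1839 CPM, against 255 to 462 CPM in the other KO libraries and 292 to 440 CPM in the other WT libraries. Both libraries of P9 (KO PV), P22 (WT PV) and C24 (WT Camk2a), and the V1 library of P24 (KO PV), scored like the opposite area on genes that separate V1 and S1. Whether area labels were exchanged was not tested, and the libraries are grouped as labelled, so the V1 and S1 values of these animals are uncertain. The S1 library of C24 was the single library with batch number 2 and had the lowest total. Results that rest on these animals are given with and without them.

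Promoter windows, from 250 bases before to 50 bases after the start, were listed for 8 of the 9 genes (RefSeq, GRCm38.p6). The windows of 4 genes are shown, because Irf4 had the largest difference in PV neurons, Rassf4 and Zfpm1 were the lowest-p members in Camk2a neurons, and Akr1c18 differed most between the cell classes. Capitals mark matches on either strand to the GC box GGGCGG and to the TATA box TATAAA.
Irf4, chr13:30748983-30749282, plus strand: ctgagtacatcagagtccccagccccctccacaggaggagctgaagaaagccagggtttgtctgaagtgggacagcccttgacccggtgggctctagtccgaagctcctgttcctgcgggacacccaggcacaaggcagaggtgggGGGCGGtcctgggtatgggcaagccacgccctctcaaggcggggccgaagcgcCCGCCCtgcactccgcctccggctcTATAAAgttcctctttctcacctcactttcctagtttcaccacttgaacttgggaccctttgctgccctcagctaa
Zfpm1, chr8:122281891-122282190, plus strand: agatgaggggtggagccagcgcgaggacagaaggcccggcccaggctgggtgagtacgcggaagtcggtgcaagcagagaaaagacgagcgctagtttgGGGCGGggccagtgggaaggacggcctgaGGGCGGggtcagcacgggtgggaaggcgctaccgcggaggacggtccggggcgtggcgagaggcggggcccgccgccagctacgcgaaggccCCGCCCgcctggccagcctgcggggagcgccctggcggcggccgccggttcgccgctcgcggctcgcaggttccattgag
Rassf4, chr6:116673787-116674086, minus strand: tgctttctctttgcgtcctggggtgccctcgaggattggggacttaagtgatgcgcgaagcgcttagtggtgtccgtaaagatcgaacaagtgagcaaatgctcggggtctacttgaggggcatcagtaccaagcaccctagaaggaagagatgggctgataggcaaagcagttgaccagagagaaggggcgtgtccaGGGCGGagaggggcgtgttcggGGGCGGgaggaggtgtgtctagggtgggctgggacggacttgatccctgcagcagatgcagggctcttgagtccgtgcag
Akr1c18, chr13:4150597-4150896, minus strand: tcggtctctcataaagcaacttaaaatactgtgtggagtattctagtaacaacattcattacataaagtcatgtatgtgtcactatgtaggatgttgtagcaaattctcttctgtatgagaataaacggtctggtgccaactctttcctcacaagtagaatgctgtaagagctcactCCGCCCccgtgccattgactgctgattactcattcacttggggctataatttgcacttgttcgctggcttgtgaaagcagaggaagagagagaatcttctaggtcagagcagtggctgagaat

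The GC box occurred in at least 1 window of all 8 genes. For Tbc1d1 it was in the window at chr5:64230107-64230406 but not in that listed first, at chr5:64160010-64160309. Of the 12238 genes listed, 61.1% had it. Here and below, shares and medians over all windows used 1 window per gene, the first listed, so they are not quite like the count of 8. Counts were 2 in Irf4, 3 in Zfpm1, 2 in Rassf4, 1 in Akr1c18 and 15, partly overlapping, in Hivep1. The TATA box occurred only in Irf4 among the 8, and in 7.66% of all windows. The window of Akr1c18 was poor in CpG, with 5 CpG pairs and 42.3% G or C, against medians of 20 CpG pairs and 60.3% over all windows, while that of Hivep1 held 48 CpG pairs and 87.0% G or C. Searches on both strands for the CRE motif TGACGTCA, the AP-1 motif TGANTCA, the E-box CACGTG, the GATA motif AGATAA and the NFAT motif TGGAAA gave no match in the windows of the 8 genes. Of all windows, 3.07% held the CRE motif, 4.99% AP-1, 9.65% the E-box, 6.61% GATA and 17.0% NFAT. These letters were not in those windows, which says nothing of binding.

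In the mm10 build (GENCODE M21), Irf4 lies at chr13:30749226-30766976 on the plus strand, Hivep1 at chr13:42052021-42192537 (plus), Zfpm1 at chr8:122282141-122337251 (plus) and Klhl14 at chr18:21550377-21654718 (minus). Ankrd50 lies at chr3:38449259-38484844 (minus), Rassf4 at chr6:116633008-116673952 (minus) and Tbc1d1 at chr5:64156305-64351486 (plus). Whrn lies at chr4:63414910-63495991 (minus) and Akr1c18 at chr13:4132615-4150654 (minus). Their median gene length was 55111 bases against 20439 bases over all 17614 named genes, and their median exon length was 7337 against 4053.5 bases. For both lengths, 7 of the 9 lay above the median of all genes.

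Per kilobase of exon, Akr1c18 stood highest of the 9 genes in PV neurons, at 26.5 ± 4.61 CPM per kilobase in KO libraries and 38.0 ± 5.15 in WT libraries (SD, n = 20 each). Ankrd50 was next at 13.9 ± 1.04 in KO and 18.3 ± 2.44 in WT. Hivep1 had 10.2 ± 0.934 in KO and 13.3 ± 2.07 in WT, and Whrn had 9.74 ± 0.775 in KO and 11.8 ± 0.661 in WT, so these neighbours were within their spread. Zfpm1 (5.63 ± 0.423 in KO and 7.77 ± 1.15 in WT), Rassf4 (4.00 ± 0.701 and 5.85 ± 1.33) and Tbc1d1 (2.50 ± 0.326 and 3.15 ± 0.373) followed. Klhl14 had 1.02 ± 0.219 CPM per kilobase in KO and 1.87 ± 0.25 in WT. Irf4 came last, at 0.103 ± 0.0392 in KO and 0.259 ± 0.0651 in WT.

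Of the 3 nuclear regulators, Irf4 showed the largest difference. It is an interferon regulatory factor known from lymphocyte and myeloid differentiation, and its level in cortex was low. In V1, Irf4 had a lowest, median and highest level of 0.256, 0.430 and 1.03 CPM in KO PV libraries, against 0.669, 1.31 and 1.83 CPM in WT PV libraries. In S1, Irf4 had 0.251, 0.524 and 0.690 CPM in KO, against 0.927, 1.30 and 1.71 CPM in WT. All S1 libraries of KO lay below all of WT, and in V1 8 of 10 KO libraries lay below the lowest WT library, with P23 the highest. These levels stood for 10 to 39 estimated reads per KO library and 23 to 72 per WT library. Over summed animals the log2 fold change of KO over WT was -1.34 (SE 0.15), which is 0.396 of the WT level.

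Hivep1 encodes a large zinc-finger protein that binds NF-kappaB-type enhancer motifs. In V1, Hivep1 had 82.0, 96.2 and 113 CPM (lowest, median, highest) in KO PV libraries, against 104, 125 and 164 CPM in WT. In S1, Hivep1 had 83.4, 91.8 and 112 CPM in KO, against 90.8, 114 and 145 CPM in WT. The groups overlapped in each area, while all KO libraries stayed below the WT mean. The log2 fold change over animals was -0.36 (SE 0.07).

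Zfpm1 encodes FOG1, the cofactor of GATA transcription factors in blood cell formation. In V1, Zfpm1 had 18.1, 19.4 and 21.9 CPM in KO PV libraries, against 18.96, 27.8 and 36.3 CPM in WT. In S1, Zfpm1 had 16.9, 20.1 and 22.1 CPM in KO, against 23.0, 25.7 and 33.3 CPM in WT. The groups were apart in S1, and in V1 the single low WT library was that of P27. Its log2 fold change was -0.44 (SE 0.07). Gm20388, annotated over Zfpm1 on the same strand, shares sequence with it, so reads may have been divided between them. It had 22.3 ± 10.4 CPM in KO V1 and 27.0 ± 7.04 in WT V1, and 23.4 ± 8.74 in KO S1 and 21.0 ± 5.26 in WT S1.

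Among the adaptors and scaffolds, Klhl14 differed most. It is a BTB-Kelch protein of the kind that brings substrates to cullin 3 ubiquitin ligases. In V1, Klhl14 had 3.39, 4.12 and 6.59 CPM in KO PV libraries, against 7.14, 8.26 and 10.8 CPM in WT. In S1, Klhl14 had 3.51, 4.51 and 6.69 CPM in KO, against 6.34, 7.96 and 10.4 CPM in WT. V1 groups did not overlap, and in S1 the highest KO library (P11) passed only the lowest WT library (P1). Over animals its log2 fold change was -0.86 (SE 0.10), or 0.551 of the WT level. The antisense gene 4930426D05Rik overlaps Klhl14 and had 0.676 ± 0.21 CPM in KO V1 and 1.19 ± 0.254 in WT V1, and 0.681 ± 0.223 in KO S1 and 1.11 ± 0.182 in WT S1. Whether the counting used strand was not given, so reads of the pair cannot be told apart.

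Rassf4 encodes a Ras-association domain protein of the family linked to Hippo signalling. In V1, Rassf4 had 25.4, 32.3 and 44.8 CPM in KO PV libraries, against 36.5, 42.5 and 69.0 CPM in WT. In S1, Rassf4 had 33.7, 39.3 and 48.5 CPM in KO, against 42.0, 61.8 and 74.8 CPM in WT. The libraries that made the groups meet were those of P9 and P24 in KO V1 and of P22 in WT S1, all among those that scored like the opposite area. Summed by animal, the groups separated, at 32.2 to 41.3 CPM in KO and 45.7 to 61.9 CPM in WT, and the log2 fold change was -0.51 (SE 0.05).

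Ankrd50 encodes an ankyrin-repeat protein that works with SNX27 and the retromer in returning cargo from endosomes to the plasma membrane. In V1, Ankrd50 had 104, 123 and 139 CPM in KO PV libraries, against 136, 150 and 208 CPM in WT. In S1, Ankrd50 had 108, 114 and 128 CPM in KO, against 134, 145 and 178 CPM in WT. S1 groups did not overlap and V1 groups met at a single KO library. Its log2 fold change was -0.39 (SE 0.06).

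Tbc1d1 encodes a Rab GTPase-activating protein that controls glucose transporter traffic in muscle. In V1, Tbc1d1 had 16.4, 18.8 and 23.4 CPM in KO PV libraries, against 20.8, 25.2 and 27.5 CPM in WT. In S1, Tbc1d1 had 14.03, 17.3 and 22.0 CPM in KO, against 18.1, 21.4 and 26.2 CPM in WT. Libraries of the groups overlapped in each area. The summed animals were apart, at 16.7 to 20.5 CPM in KO and 21.8 to 24.1 CPM in WT, with a log2 fold change of -0.33 (SE 0.04). An antisense gene, Gm15823, overlaps it and stayed between 0.762 and 1.09 CPM on average in the 4 PV groups.

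Whrn encodes whirlin, a PDZ scaffold of hair-cell stereocilia and photoreceptors that is mutated in Usher syndrome. In V1, Whrn had 62.6, 70.2 and 86.7 CPM in KO PV libraries, against 78.2, 84.1 and 95.9 CPM in WT. In S1, Whrn had 64.8, 71.4 and 79.7 CPM in KO, against 81.4, 86.4 and 96.7 CPM in WT. S1 groups did not overlap, and in V1 only the KO library of P23 lay above a WT library. Whrn had the smallest difference of the 9, a log2 fold change of -0.27 (SE 0.04).

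Akr1c18, the enzyme that converts progesterone to a less active form in the mouse ovary, completed the set. In V1, Akr1c18 had 27.2, 30.8 and 40.7 CPM in KO PV libraries, against 31.8, 43.7 and 50.6 CPM in WT. In S1, Akr1c18 had 18.7, 30.0 and 40.8 CPM in KO, against 38.0, 48.6 and 57.2 CPM in WT. The groups overlapped in each area, and all KO libraries lay below the WT mean. Its log2 fold change was -0.47 (SE 0.07).

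Summed by animal, all KO lay below all WT for 5 of the 9 genes, namely Irf4, Klhl14, Rassf4, Ankrd50 and Tbc1d1, where 0.187% of 17154 genes tested did so. All 9 had every KO animal below the WT mean, where 3.17% of genes did. Over all genes 234 passed an adjusted p under 0.05 in edgeR's quasi-likelihood test, 1.05% lower and 0.315% higher in KO. Since the genes were picked on this contrast, nothing is read from those shares. Without P9, P22 and P24 the log2 fold changes of the 9 ran from -1.34 for Irf4 to -0.25 for Whrn. By area they ran from -1.33 (Irf4) to -0.26 (Whrn) in V1 and from -1.31 (Irf4) to -0.26 (Whrn) in S1. Markers of other cells did not pass the test in PV neurons for any of 50 genes in 7 lists, although all 4 red blood cell markers were higher in KO, with a median log2 fold change of 0.74. The part of red blood cell RNA in the result was not tested.

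**Figure D1:**
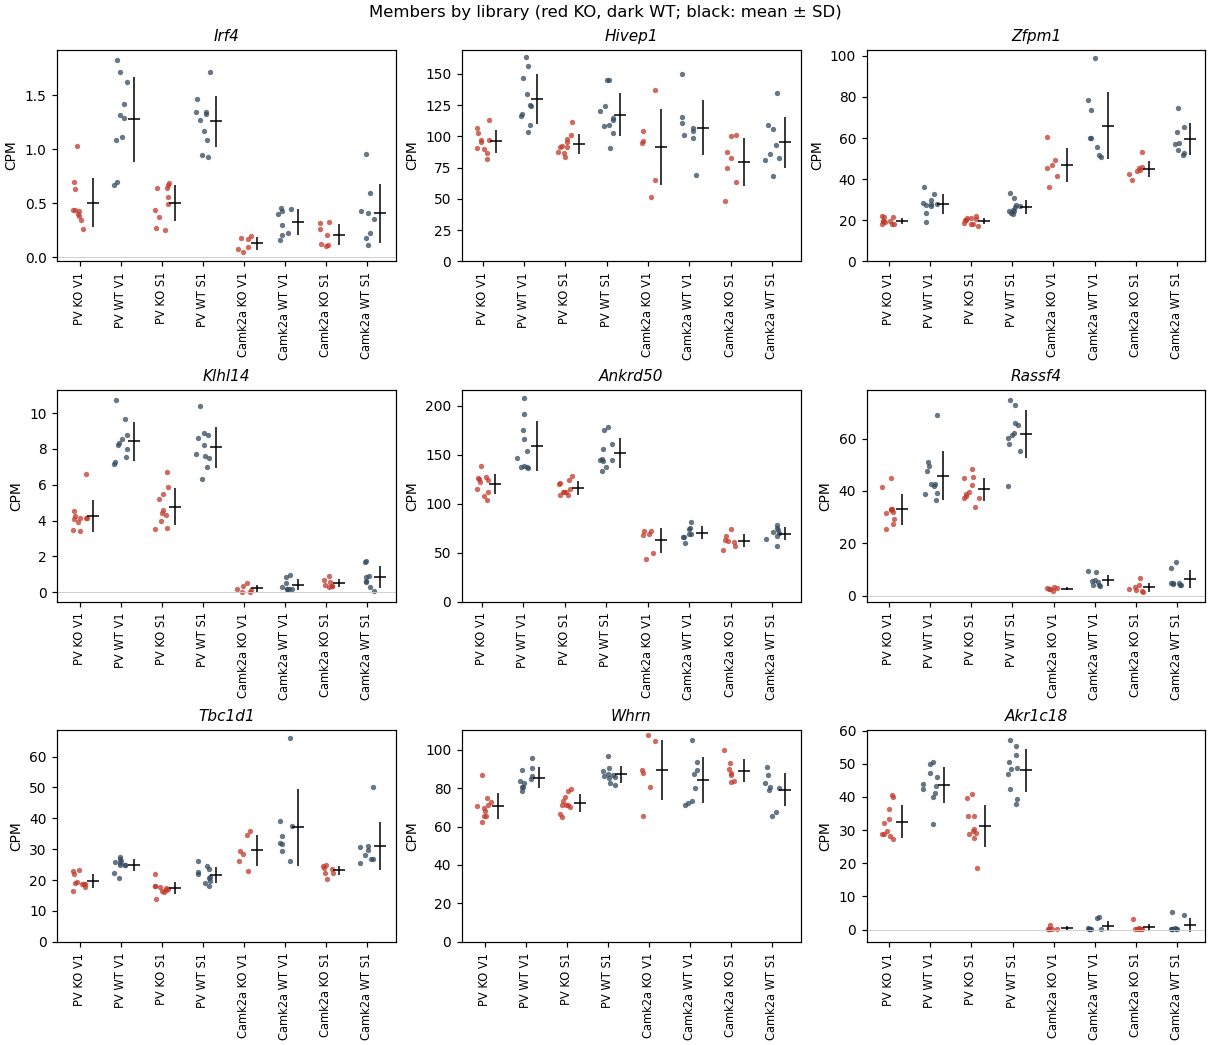
Level of each gene in CPM (vertical axis, from 0) in every library of the 8 groups, red for KO and dark for WT, with black bars for mean ± SD. In PV neurons Irf4 lay at 0.251 to 1.03 CPM in KO libraries and 0.669 to 1.83 CPM in WT libraries, and Akr1c18 was near 0 in most Camk2a libraries.

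In Camk2a neurons, whose animals the choice did not use, 8 of the 9 genes had a negative log2 fold change of KO over WT and Whrn had a positive one. The median was -0.38 for the 9 and 0.00 for all 16743 genes tested, of which 49.0% were negative. Zfpm1 alone fell with an adjusted p under 0.05, where 2.05% of all genes were called lower and 4.11% called in either direction. The test was edgeR's quasi-likelihood test on 6 KO and 7 WT animals, adjusted over all genes tested (Benjamini-Hochberg).

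Zfpm1 was higher in Camk2a than in PV neurons. In V1, Zfpm1 had 36.3, 46.2 and 60.7 CPM (lowest, median, highest) in KO Camk2a libraries, against 50.6, 60.1 and 98.8 CPM in WT. In S1, Zfpm1 had 39.7, 44.5 and 53.0 CPM in KO, against 51.6, 57.3 and 74.4 CPM in WT. A single KO library in each area reached into the WT range, and all KO libraries lay below the WT mean. The share of all genes that did so by library was not counted. Over animals the level of Zfpm1 was 46.3 ± 5.64 CPM in KO and 60.4 ± 7.30 CPM in WT (SD), a log2 fold change of -0.37 (SE 0.09, edgeR adjusted p = 0.034). It was lower than the WT mean in 6 of 6 KO animals, where 12.8% of 16743 genes had every KO animal below their WT mean. The call was lost without C3, C18 and C19 (log2 fold change -0.42, adjusted p = 0.094), in V1 alone (-0.48, adjusted p = 0.13), and without any single animal of C3, C5, C6, C7, C15 or C23, at adjusted p up to 0.087. In S1 alone its adjusted p was 0.0091. Gm20388, which overlaps it, had 33.8 ± 13.6 CPM in KO V1 and 30.0 ± 15.4 in WT V1, and 41.4 ± 16.4 in KO S1 and 51.8 ± 7.22 in WT S1.

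Rassf4 did not pass in the summed animals (log2 fold change -1.10, SE 0.30, edgeR adjusted p = 0.056). Its 6 KO V1 libraries all lay below the 8 of WT, and the share of all genes that did so in V1 was not counted. In V1, Rassf4 had 1.61, 2.78 and 3.16 CPM in KO Camk2a libraries, against 3.76, 5.35 and 9.41 CPM in WT. In S1, Rassf4 had 1.57, 2.57 and 6.55 CPM in KO, against 4.15, 4.89 and 12.7 CPM in WT. The S1 overlap came from 1 KO library, that of C3. C3, C18 and C19 were also the animals with more PV marker RNA, and Rassf4 is a PV-rich gene. Without them Rassf4 ran from 1.57 to 3.88 CPM in the KO S1 libraries and 4.15 to 4.98 CPM in the WT S1 libraries, and its log2 fold change was -0.94 (SE 0.16, edgeR adjusted p = 0.029). With the PV marker level as a covariate, a setting chosen after seeing the data, it was -0.88 (SE 0.12, edgeR adjusted p = 0.0026). With the replicate block of the animal's libraries in limma it was -1.12 (adjusted p = 0.0048), and without C24 edgeR gave -1.15 (adjusted p = 0.047). Of 13 edgeR fits that each left out 1 animal, Rassf4 was called in only 2, with an adjusted p up to 0.135, without C7. It also failed in edgeR with RLE size factors (adjusted p = 0.056) and without the filter on low counts (0.060). In S1 alone the edgeR adjusted p was 0.12, in V1 alone 0.029 and without the sex term 0.038, and DESeq2 gave 0.0091 in the summed animals.

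Irf4 stayed low in Camk2a neurons. In V1, Irf4 had 0.0499, 0.130 and 0.196 CPM in KO Camk2a libraries, against 0.161, 0.345 and 0.456 CPM in WT, and in S1 it had 0.101, 0.208 and 0.322 CPM in KO, against 0.114, 0.377 and 0.952 CPM in WT. These were 2 to 13 estimated reads per KO library and 3 to 43 per WT library. All KO libraries lay below the WT mean of their area, and the share of all genes that did so was not counted. The log2 fold change was -1.06 (SE 0.31, edgeR adjusted p = 0.067). It passed with DESeq2 (adjusted p = 0.032), and with edgeR without C24 (adjusted p = 0.033) or without C14 (adjusted p = 0.042). These were the only 2 calls in 13 edgeR fits that each left out 1 animal, with an adjusted p up to 0.152. By edgeR it also failed without C3, C18 and C19 (adjusted p = 0.15), in S1 alone (0.17), without the sex term (0.060) and with the PV marker covariate (0.067). In V1 alone it could not be tested.

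Klhl14 and Akr1c18 were close to the floor of the Camk2a libraries and moved with the PV marker RNA. Klhl14 averaged 0.361 ± 0.212 CPM in KO animals and 0.696 ± 0.467 CPM in WT animals, a log2 fold change of -0.90 (SE 0.50, edgeR adjusted p = 0.30). Akr1c18 had a median of 0.187 CPM in KO animals and 0.227 CPM in WT animals, with maxima of 2.46 CPM in C3 (KO) and 4.57 CPM in C19 (WT), and a log2 fold change of -1.65 (SE 1.47, edgeR adjusted p = 0.54). Without C3, C18 and C19 the values were -0.68 for Klhl14 and -0.31 for Akr1c18. Over the 29 Camk2a libraries, the correlation of log2 CPM with the PV marker level was 0.92 for Akr1c18, 0.79 for Klhl14 and 0.69 for Rassf4, and between -0.34 and 0.23 for the other 6. These libraries share animals, so the correlations are a description. The 10 PV markers had a median log2 fold change of -0.89 in Camk2a KO over WT, 9 of 10 negative and none called. Their summed CPM ran from 255 to 1391 in KO libraries and from 292 to 1839 in WT libraries.

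**Figure D2:**
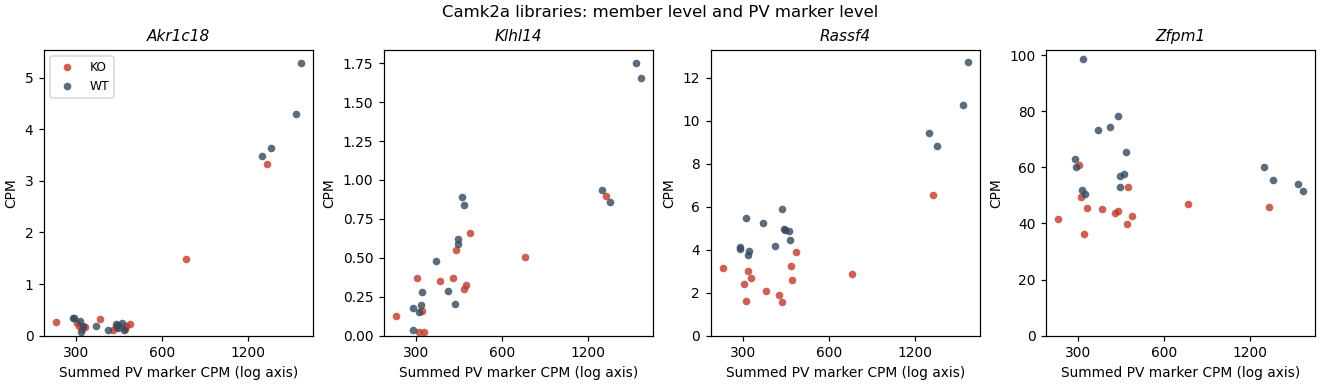
CPM of Akr1c18, Klhl14, Rassf4 and Zfpm1 (vertical axes, from 0) in the 29 Camk2a libraries against the summed CPM of 10 PV markers (horizontal log axis), red for KO and dark for WT. The 6 libraries of C3, C18 and C19, at 724 CPM or more, hold the highest Akr1c18 values, while Rassf4 is lower in most KO libraries also at low marker sums.

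For the remaining genes the Camk2a test gave no call. Tbc1d1 had 20.4, 23.4 and 24.8 CPM in KO S1 libraries, against 25.6, 28.9 and 50.0 CPM in WT S1 libraries, with all 7 KO below all 8 WT. In V1 it had 23.1, 29.0 and 35.9 CPM in KO, against 26.0, 33.3 and 65.9 CPM in WT, and the groups overlapped. Its log2 fold change over animals was -0.24 (SE 0.10, edgeR adjusted p = 0.18). Ankrd50 had 49.0 to 73.7 CPM in KO animals and 62.4 to 79.8 CPM in WT animals (log2 fold change -0.18, SE 0.09, edgeR adjusted p = 0.25), and Hivep1 had 50.2 to 122 CPM in KO and 70.1 to 130 CPM in WT (-0.26, SE 0.20, edgeR adjusted p = 0.47). Both overlapped over much of their range. Whrn had 76.8 to 104 CPM in KO animals and 70.6 to 96.6 CPM in WT animals, with a log2 fold change of 0.12 (SE 0.08, edgeR adjusted p = 0.38) and a 95% interval from -0.04 to 0.28, as 1.96 SE to each side. The intervals were -0.43 to -0.04 for Tbc1d1, -0.358 to -0.002 for Ankrd50 and -0.66 to 0.13 for Hivep1, unadjusted for the number of genes. They are approximate and too narrow, since 1.96 SE takes no account of the few animals. That of Ankrd50 leaves out 0, while its unadjusted edgeR p was 0.067. Summed by animal, no gene of the 9 had all KO below all WT, where 1.22% of all genes did. For the libraries of a single area, as with Tbc1d1 in S1, such a share was not counted.

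The summed level of 6 astrocyte markers was 68.8 to 110 CPM in Camk2a KO libraries and 104 to 147 CPM in WT libraries. The sum rested on Aldoc (44.6 CPM in KO animals and 80.2 CPM in WT animals) and Aldh1l1 (27.2 and 35.0 CPM), which were called lower. The other 4, Aqp4, Gfap, Slc1a3 and Gja1, had log2 fold changes of 0.04 to 0.27 and were not called, and the list's median was 0.09. In the same comparison 1 of 8 oligodendrocyte markers (Mbp) and 1 of 7 vascular markers (Tagln) were called lower. Their part in the differences of Zfpm1 and Rassf4 was not tested.

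**Figure D3:**
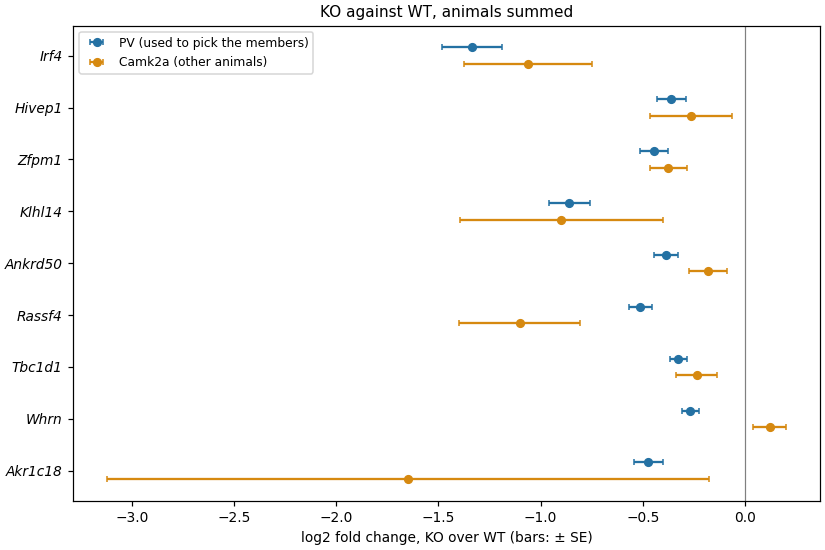
Log2 fold change of KO over WT (horizontal axis, bars ± SE) for the 9 genes over summed animals, in PV neurons (blue, 9 KO and 10 WT animals, the contrast that chose the genes) and Camk2a neurons (orange, 6 KO and 7 WT animals). Whrn is the single gene right of 0 in Camk2a, at 0.12, and the Camk2a bars of Akr1c18 and Klhl14 are wide.

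The relatives and partners of the 9 genes mostly did not follow them. Lists drawn up for this purpose held the Klhl family with cullin 3, the Rassf family and Hippo pathway, the Tbc1d1 paralog with Rabs and upstream kinases, SNX27-retromer and WASH, whirlin and Usher partners, the Hivep family and NF-kappaB, GATA factors and NuRD, the Irf family and partners, and progesterone metabolism. In PV neurons 1 of 134 genes tested was called, or 0.746%. It was 1 of 10 whirlin and Usher partners and fell in KO, and none of the genes tested in the other 8 lists was called, where 1.36% of all genes were called in either direction. The gene that fell was Eps8, an actin-capping protein of stereocilia, at 10.3 ± 1.14 CPM in KO animals and 13.1 ± 1.71 CPM in WT animals (log2 fold change -0.36, SE 0.07, edgeR adjusted p = 0.015). List medians in PV lay between -0.06 for progesterone metabolism and 0.04 for SNX27-retromer and WASH, beside 0.01 over all genes.

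In Camk2a neurons 5 of 133 genes tested in these lists were called, or 3.76%, where 4.11% of all genes were called, so the lists lay at the background. Those that fell were Klhl1 (1 of 32 in the Klhl list; log2 fold change -0.41, edgeR adjusted p = 0.049), the Eps8 relative Eps8l2 (1 of 10; -0.79, edgeR adjusted p = 0.034) and Batf3, a leucine-zipper partner of Irf factors (1 of 12; -1.19, edgeR adjusted p = 0.015). Those that rose were Mob1b, a Hippo kinase activator (1 of 21; 0.38, edgeR adjusted p = 0.0050), and Washc2, a subunit of the WASH complex (1 of 10; 0.25, edgeR adjusted p = 0.026). The other 4 lists had no call. List medians ran from -0.10 for the Irf list to 0.11 for SNX27-retromer and WASH.

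Between the cell classes the 9 genes split into PV-rich, shared and Camk2a-rich genes. In WT animals, 6 of 9 were called higher in PV than in Camk2a neurons and 2 lower, where 80.4% of 17317 genes were called, 41.0% higher and 39.4% lower. In KO animals 5 were called higher and 3 lower, where 79.0% of 17394 genes were called, 40.5% higher and 38.5% lower. The 8 of 9 called in each genotype is near the background. Hivep1 in WT, Whrn in KO, and Irf4 and Tbc1d1 in each genotype, given below with no p, are in these counts. Picking genes for low KO and high WT values in the PV libraries used here favours a lower PV level in KO and a higher one in WT.

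Akr1c18 had the largest difference, at 32.8 ± 3.70 CPM in KO PV animals against 0.561 ± 0.929 in KO Camk2a animals, and 45.4 ± 5.37 CPM in WT PV animals against 1.38 ± 1.98 in WT Camk2a animals (SD). Its log2 fold change of PV over Camk2a was 5.86 in KO and 5.23 in WT (SE 0.54 and 0.68, edgeR adjusted p = 3.6e-07 and 4.0e-06). Without C3, C18 and C19 it was 7.48 in KO and 7.66 in WT. Klhl14 had log2 fold changes of 3.61 in KO and 3.60 in WT (SE 0.27 and 0.31), and Rassf4 of 3.63 in KO and 3.11 in WT (SE 0.18 and 0.19). Irf4 was higher in PV by 1.49 in KO and 1.72 in WT (SE 0.22 and 0.24), and Ankrd50 by 0.89 in KO and 1.15 in WT (SE 0.07 each). The largest edgeR adjusted p of Klhl14, Rassf4 and Ankrd50 was 9.2e-09. The differences of Irf4 were near the size of its genotype difference in PV, so they are a description, with no p.

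Hivep1 and Whrn lay near the class boundary. Their class differences were about the size of the genotype differences on which they were picked, so they are given as a description, with no p. Hivep1 had a log2 fold change of PV over Camk2a of 0.10 in KO and 0.28 in WT (SE 0.14 and 0.11), and of 0.16 in WT without C18 and C19, where it was not called. Whrn had 71.0 ± 4.91 CPM in KO PV animals against 90.1 ± 10.1 CPM in KO Camk2a animals (-0.33, SE 0.06), and 85.3 ± 4.60 CPM in WT PV animals against 83.4 ± 8.46 CPM in WT Camk2a animals (0.03, SE 0.05). Tbc1d1 and Zfpm1 were the Camk2a-rich genes. Tbc1d1 differed by -0.54 in KO and -0.45 in WT (SE 0.07 each), not far above its genotype difference in PV, so no p is given. Zfpm1 differed by -1.24 in KO and -1.12 in WT (SE 0.07 and 0.08, edgeR adjusted p = 2.6e-12 and 1.1e-10).

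**Figure D4:**
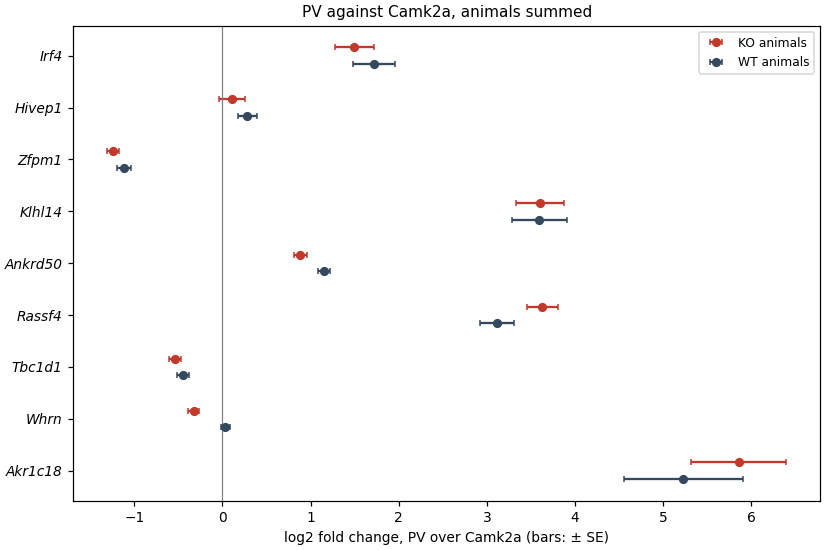
Log2 fold change of PV over Camk2a (horizontal axis, bars ± SE) for the 9 genes over summed animals, red for KO and dark for WT. Akr1c18, Klhl14 and Rassf4 lie above 3 in each genotype, Zfpm1 lies below -1, and Whrn lies at -0.33 in KO and 0.03 in WT.

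Between the areas, Rassf4 and Tbc1d1 differed in PV neurons in opposite directions. Of 16233 genes tested in PV, 39.8% were called, 21.9% higher and 17.8% lower in V1, so 2 of 9 is no more than the share of all genes. Rassf4 averaged 33.0 ± 5.99 CPM in KO V1 against 40.6 ± 4.54 in KO S1, and 45.9 ± 9.45 CPM in WT V1 against 61.8 ± 9.29 in WT S1 (SD, n = 10 libraries each). It was lower in V1 in 16 of 19 animals, with a log2 fold change of V1 over S1 of -0.35 (SE 0.07, edgeR adjusted p = 2.3e-04). Tbc1d1 averaged 19.7 ± 2.30 CPM in KO V1 against 17.4 ± 2.02 in KO S1, and 24.9 ± 2.00 CPM in WT V1 against 21.8 ± 2.56 in WT S1. It was higher in V1 in 16 of 19 animals (log2 fold change 0.20, SE 0.05, edgeR adjusted p = 0.0017). Without P9, P22 and P24, which stood apart in the area score, the values were -0.50 for Rassf4 and 0.27 for Tbc1d1. That score was built from area differences in these data, so leaving these animals out favours larger differences, and nothing is read from the increase. The other 7 genes did not pass in PV, at log2 fold changes from -0.04 to 0.10. These fits took the V1 and S1 libraries of an animal as independent. With the animal as replicate block, Rassf4 had -0.38 (SE 0.08, edgeR adjusted p = 0.0015) and Tbc1d1 0.185 (SE 0.055, edgeR adjusted p = 0.0095). Hivep1 also passed with the block (0.10, SE 0.04, edgeR adjusted p = 0.035), higher in V1 in 13 of 19 animals. The fit with the block called 7406 of 16180 genes, so such calls were common among all genes.

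In Camk2a neurons, where 24.8% of 15722 genes were called, 12.7% higher and 12.1% lower in V1, Klhl14 was lower and Tbc1d1 higher in V1. These 2 of 8 genes tested are near the share of all genes. Klhl14 averaged 0.201 ± 0.195 CPM in KO V1 against 0.493 ± 0.223 in KO S1, and 0.410 ± 0.319 CPM in WT V1 against 0.833 ± 0.605 in WT S1. It was lower in V1 in 12 of 13 animals (log2 fold change -1.15, SE 0.38, edgeR adjusted p = 0.028), the exception being C24. Without C24 the log2 fold change was -1.20 (edgeR adjusted p = 0.010), and without C3, C18 and C19 it was -1.38 (edgeR adjusted p = 0.010). Counts were 1 to 35 reads in V1 libraries and 1 to 71 in S1 libraries. Summed PV markers had a median of 310 CPM in KO V1 against 443 in KO S1, and 334 CPM in WT V1 against 428 in WT S1, and their part in the difference was not tested. Tbc1d1 rose by 0.30 (SE 0.11, edgeR adjusted p = 0.042) and was higher in V1 in 10 of 13 animals, but missed the threshold without C3, C18 and C19 (0.33, edgeR adjusted p = 0.062). Without C24 it was 0.38 (edgeR adjusted p = 0.0037). C24 was set apart by area differences in these data, so leaving it out favours larger differences of Klhl14 and Tbc1d1. Here too the fits took the libraries of an animal as independent. With the animal as replicate block, Klhl14 had -1.24 (SE 0.27, edgeR adjusted p = 0.0027) and Tbc1d1 0.21 (SE 0.07, edgeR adjusted p = 0.042). Hivep1 passed with the block (0.18, SE 0.05, edgeR adjusted p = 0.012), higher in V1 in 12 of 13 animals. In Camk2a the fit with the block called 4912 of 15586 genes, so here too such calls were common. Akr1c18 was too low to be tested, and 8 genes were.

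**Figure D5:**
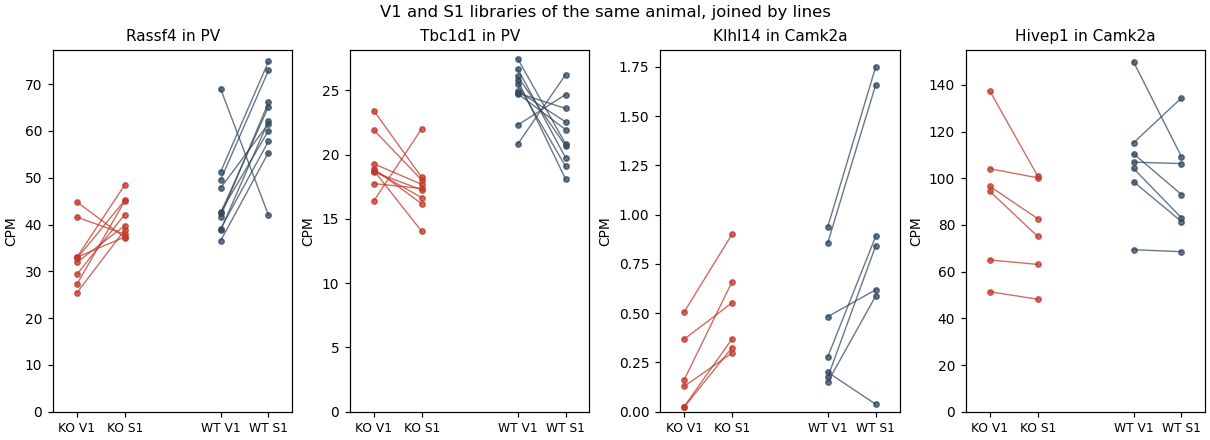
CPM (vertical axes, from 0) in the V1 and S1 libraries of each animal, joined by a line, red for KO and dark for WT, for Rassf4 and Tbc1d1 in PV and Klhl14 and Hivep1 in Camk2a neurons. Rassf4 is lower in V1 in 16 of 19 animals, and Hivep1 is higher in V1 in 12 of 13 animals.

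None of the 9 genes differed between 10 male and 9 female animals in PV neurons. The log2 fold changes of male over female ran from -0.09 for Zfpm1 to 0.10 for Klhl14, with a smallest edgeR adjusted p of 0.98. Over all genes, 5 of 17154 were called by edgeR and 13 by DESeq2, and 807 had an unadjusted p under 0.05 in edgeR.

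The 9 genes as a set did not rise and fall together from library to library once the groups were accounted for, though some pairs did. With group means removed, the correlation of log2 CPM over 40 PV libraries ran from -0.49 to 0.72 over the 36 pairs of genes, 20 of them positive, with a median of 0.07. In 29 Camk2a libraries it ran from -0.49 to 0.82, 21 of them positive. The highest pair in PV was Hivep1 with Ankrd50, at 0.72 in PV and 0.65 in Camk2a. Zfpm1 had 0.55 with Hivep1 and 0.475 with Ankrd50 in PV, and 0.46 and 0.41 in Camk2a. The highest pair in Camk2a was Rassf4 with Akr1c18, which had -0.02 in PV. Among all genes with a mean of at least 1 CPM in PV, the most similar patterns over the 40 PV libraries were as follows, by Pearson correlation, with the value after removing group means in parentheses. Fmr1 was nearest to Klhl14 at 0.87 (0.10), to Irf4 at 0.82 (0.01) and to Whrn at 0.82 (0.12), followed by Plch1 for Klhl14 and Whrn, and Serpinf1 for Irf4. For these 3 genes the likeness to Fmr1 was therefore in group means. The genes were picked for lower KO values in these same libraries, which favours a likeness to Fmr1, so nothing is read from it.

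Prr14l was nearest to Hivep1 at 0.90 (0.79) and to Ankrd50 at 0.90 (0.77), and held 0.75 and 0.67 over the 29 Camk2a libraries. Ncoa6 followed for Hivep1 at 0.90 (0.79) and Cep170b for Ankrd50 at 0.90 (0.86). Zfpm1 was nearest to Ankrd50 at 0.82 (0.47) and Hivep1 at 0.81 (0.55). Rassf4 was nearest to Fgfr1 at 0.90 (0.75), Cacna1i at 0.89 (0.75) and Cdk14 at 0.89 (0.77), which in Camk2a libraries had -0.24 to 0.12. Tbc1d1 was nearest to Ptpro at 0.86 (0.65) and Chn2 at 0.84 (0.73). Akr1c18 had the weakest neighbours, Cdk18 at 0.79 (0.53) and Gsg1l at 0.73 (0.25). Libraries share animals, depth and area, so these values describe the libraries and carry no p.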

How the data were processed

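The authors deposited estimated counts per gene, 1 column per library and not normalized; 71.1% of the deposited counts were not whole. The submitters' processing notes name STAR, Salmon, limma and mm10, with no roles or versions. Per the labels' protocols, the Ovation RNA-Seq System V2 kit was used on RNA with an integrity number of at least 7 and read ends were paired, 100 bases each. No molecular identifiers are mentioned, and homogenate RNA was not analysed here. Identifiers were matched to GENCODE M21, which named 17614 of 17634 genes. Such estimates divide reads among transcripts that have sequence in common.

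Counts were rounded. Genes were filtered with filterByExpr, scaled with TMM and tested with edgeR 4.0.16 (R 4.3.3), robust quasi-likelihood, with sex as a covariate (genotype in the sex test, sex and genotype in area tests). Benjamini-Hochberg adjustment ran over all genes tested, and calls were made at an adjusted p under 0.05. SE is the log2 fold change divided by the root of F. CPM used TMM factors over 69 libraries, and log2 CPM had a prior count of 2. DESeq2 1.42.0 and limma 3.58.1 served as alternatives. The fitting was tested on simulated counts. Errors are between animals or libraries.

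Groups, animal codes and sex came from the labels. The area score used 50 genes per direction, those with the smallest p between V1 and S1 in the same cell class of these data. V1 and S1 libraries of the same code come from the same animal. Their deviations from group means correlated with a median of 0.23 in PV (19 animals) and 0.41 in Camk2a (13 animals), against -0.06 and -0.10 between animals. Within each group, no library was present a second time (smallest chi-square per degree of freedom 4.49). Libraries of different groups were not compared in this way. Named genes were the 9 genes, Fmr1, the 3 genes with the most similar pattern to each, of which the text gives some, and up to 2 called genes per list and direction. Other called marker genes were named after their values were seen. The 9 genes and the lists were chosen with earlier results of these data known.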

Additional observations from a re-analysis of the deposited data

Results flagged for a closer look

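Among 72 sets of values, the 9 genes in 8 groups, 8 held a library far from the rest of its group, where chance flags about 1 set in 20. In PV neurons these were Klhl14 in KO V1, with 6.59 CPM in P11 and 4.51 in the next library, Whrn in KO V1 (86.7 CPM in P23, next 74.9), Tbc1d1 in KO S1 (22.0 CPM in P9, next 18.2) and Rassf4 in WT V1 (69.0 CPM in P22, next 51.2). Both libraries of P9 and P22 scored like the opposite area. In Camk2a neurons they were Akr1c18 in KO V1, with 1.49 CPM in C3 and 0.257 in the next library, Akr1c18 in KO S1 (3.32 CPM in C3, next 0.327), Tbc1d1 in WT V1 (65.9 CPM in C1, next 39.2) and Tbc1d1 in WT S1 (50.0 CPM in C24, next 31.2). C3 had PV marker sums of 724 CPM in V1 and 1391 CPM in S1, and the S1 library of C24 was in batch 2.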

How the results depend on the processing

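The counts here are totals of separate fits, and which genes they share was not counted. KO against WT in Camk2a gave 688 calls, where DESeq2 called 1731, V1 libraries alone 222, limma with the replicate block 1512, the animals without C3, C18 and C19 131, and those without C24 1347; leaving out 1 animal gave 235 to 1347. In PV it gave 234 calls, where DESeq2 called 469, V1 alone 31, S1 alone 122, the animals without P9, P22 and P24 81, and leaving out 1 animal gave 144 to 255, the fewest without P9 (144) and P10 (145). The replicate block called 350 in PV. In Camk2a edgeR called 235 without C7 or C16, 270 without C15, 272 without C23, 318 without C5, 332 without C19, 368 without C4, 372 without C20 and 1071 without C14. For sex, 5 calls became 13 with DESeq2 and 2 without P9, P22 and P24. Cause was not tested, except that fewer libraries entered the single-area and leave-out fits.

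For the 9 genes, the log2 fold change of KO over WT kept its sign in all 243 alternative values in PV and all 203 in Camk2a. The PV values reuse the libraries on which the genes were picked, so nothing is read from their sign. Values that changed sign were near 0 and not called: Whrn PV over Camk2a in WT (-0.003 to 0.054 over animals left out), Rassf4 V1 over S1 in Camk2a without C3, C18 and C19 (0.021), and Hivep1 (-0.009) and Irf4 (0.001) male over female without P9, P22 and P24. The replicate block changed no call of the genes it could test beyond Rassf4 between genotypes in Camk2a and Hivep1 between areas. Low counts limit Irf4, and Klhl14 and Akr1c18 in Camk2a.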
